A study of Homo sapiens with 18 samples.

Results

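Insulin-like growth factor (IGF) signalling was followed through 10 genes in senescent and control fibroblasts that had been given inhibitors of protein N-myristoylation. The genes were the ligands IGF1 and IGF2, the receptors IGF1R and IGF2R, and the binding proteins IGFBP2, IGFBP3, IGFBP4, IGFBP5, IGFBP6 and IGFBP7. They were picked by symbol from a count table of 28266 gene rows. All 10 were in the table, and all 10 passed the filter on low counts together with 14341 genes in all.

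The libraries were made from poly(A) RNA of IMR90 ER:RAS cells, human lung fibroblasts labelled WT. Every group carried a fusion of RAS to the hormone-binding part of the oestrogen receptor. 4-hydroxytamoxifen (4OHT) switches the fusion on and drives oncogene-induced senescence. Control cells were given DMSO and senescent cells 100 nM 4OHT for 7 days. Each then had DMSO, IMP1088 at 300 nM or DDD86481 at 1.5 µM for 3 days up to collection on day 10, which gave 6 groups of 3 libraries. Both compounds inhibit the N-myristoyltransferases NMT1 and NMT2 (NMTi), and because their doses differed, their values are set side by side without a comparison between them. The labels do not say whether libraries of a group came from separate cultures. For a heatmap of secreted factors under the same treatments, the paper counts its 3 replicates as independent experiments, without naming libraries. The p-values measure the spread between libraries, which may be technical in part.

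IGF1 and IGF2 are secreted hormones that bind IGF1R, a receptor tyrosine kinase that signals through the insulin receptor substrates to PI3K, AKT and mTOR and favours growth and survival. IGF2R, the cation-independent mannose-6-phosphate receptor, takes up IGF2 for breakdown and delivers newly made hydrolases to lysosomes, and it has no kinase of its own. Binding proteins hold IGFs in the extracellular space, and proteases such as PAPPA release the ligand from them. Several of them, among them IGFBP3, IGFBP5 and IGFBP7, are known parts of the secretome of senescent fibroblasts.

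Promoter sequences were read from RefSeq (GRCh38.p14) for 8 of the 10 genes, with windows from 250 bases before to 50 bases after the start of the gene. IGF2 and IGFBP7 had no entry. Below are the bases just before the start of IGF2R, the receptor with the larger rise in control cells, and of IGFBP3, IGFBP5 and IGFBP4, which were lower with both inhibitors in senescent cells. Capitals mark CACGTG (the E-box) in IGF2R, GGGCGG (the GC box) in IGFBP3, read on either strand, and TATAAA (the TATA box) in IGFBP4, and other matches are left in lower case. The IGF2R window is chr6:159968832-159969081 on the plus strand, the IGFBP3 window chr7:45921273-45921372 on the minus strand, the IGFBP5 window chr2:216695550-216695649 on the minus strand and the IGFBP4 window chr17:40443350-40443449 on the plus strand, and each ends at the base before the first exon.
IGF2R: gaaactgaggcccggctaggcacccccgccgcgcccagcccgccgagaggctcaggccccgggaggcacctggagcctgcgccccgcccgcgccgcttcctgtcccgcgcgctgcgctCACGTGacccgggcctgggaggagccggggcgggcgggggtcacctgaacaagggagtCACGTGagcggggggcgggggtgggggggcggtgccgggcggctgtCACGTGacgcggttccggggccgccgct
IGFBP3: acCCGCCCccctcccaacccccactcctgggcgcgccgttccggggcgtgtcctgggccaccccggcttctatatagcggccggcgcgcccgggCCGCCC
IGFBP5: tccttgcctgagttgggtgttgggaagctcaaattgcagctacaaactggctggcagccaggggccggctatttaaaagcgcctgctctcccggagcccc
IGFBP4: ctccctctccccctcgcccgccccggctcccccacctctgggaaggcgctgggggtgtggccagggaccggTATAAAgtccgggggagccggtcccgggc

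The sequences and motifs were chosen after the values and the sequences had been seen, and a match is a description of letters. CACGTG, which basic helix-loop-helix factors bind, stood 3 times before the start of IGF2R, at positions -132, -74 and -28, and in none of the other member promoters. It was in 7.26% of 35116 promoter windows of the same length, and 3 or more copies were in 0.094% of them. GGGCGG was in 7 of the 11 member promoter entries (6 genes) against 45% of all windows. TATAAA was in 1 of them, that of IGFBP4, against 11.5% of all. A further motif, TGANTCA of the AP-1 factors, was in 0 of the 11 entries and in 7.71% of all windows. The IGFBP5 window held none of the 4 motifs on either strand.

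Library totals ran from 16143716 to 23189950 counts, and levels are given as CPM, counts relative to the library total after TMM scaling, as mean ± SD of 3 libraries. A count of 0 allows up to 3 counts, or 0.121 to 0.187 CPM in these libraries. The senescence marker CDKN1A was higher in senescent than in control DMSO cells (log2 fold change 2.50 ± 0.11 SE) and LMNB1, a lamin lost in senescence, was lower (-3.69 ± 0.29). All 9 fibroblast markers were present, with a summed level of 24300 to 35000 CPM in control and 11500 to 16900 CPM in senescent libraries. Among them DCN went from 3042 ± 226 to 7.73 ± 0.288 CPM, LUM from 314 ± 21.4 to 8.39 ± 1.01 CPM and COL3A1 from 3701 ± 620 to 296 ± 47.9 CPM between control and senescent DMSO cells. Not all 9 fell: VIM went from 5035 ± 432 up to 11680 ± 374 CPM. FAP, at 119 ± 4.2 and 103 ± 14.5 CPM, overlapped between the same groups. The summed level of 15 markers of epithelial, endothelial, blood and smooth muscle cells was 40 to 75.2 CPM in control and 104 to 173 CPM in senescent libraries. KRT5, SFTPC and CD3E were at 0 in all 18 libraries, and CD68, a lysosomal glycoprotein, made up most of the sum in senescent DMSO libraries with 119 to 149 CPM, against 14.8 to 19.5 CPM in control DMSO libraries. Between control and senescent DMSO libraries the sum of the 4 endothelial markers went from 1.17 to 1.73 CPM up to 10.3 to 10.7 CPM. The 5 epithelial markers went from 28 to 39.3 CPM down to 1.15 to 1.49 CPM, mostly the keratin KRT19, and the 2 smooth muscle markers from 15.6 to 16.4 CPM down to 0.22 to 0.374 CPM. The part of these cell types in the results was not tested. In bulk RNA, fewer cells of a type and less RNA per cell cannot be told apart.

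Control DMSO replicate 3 stood apart from the other 2 libraries of its group in a way that followed exonic length. Against their mean, its median log2 difference was 0.48 over 1235 genes of up to 2 kb and -0.36 over 2241 genes longer than 10 kb. Members differed there as well. IGF2R, with 22.6 kb of exons, was lower by a log2 difference of -1.23, IGF1R (13.9 kb) by -0.67 and IGFBP5 (6.47 kb) by -0.64, while IGFBP6 (1.35 kb) was higher by 0.63, IGFBP7 (1.93 kb) by 0.53 and IGFBP4 (2.21 kb) by 0.39. IGFBP2 and IGFBP3, of 4.74 and 4.57 kb, did not follow the median of 0.15 over genes of 2 to 5 kb, with differences of 0.76 and -0.10. Median log2 fold changes in control cells ran from -0.23 in the shortest genes to 0.12 in the longest with IMP1088, and from -0.27 to 0.16 with DDD86481. Some of the members' values are also given without this library or with each library's trend over length removed, an alternative added after the data were seen. Not every value that these alternatives move is given in that way. What made this library differ was not tested.

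**Figure D1:**
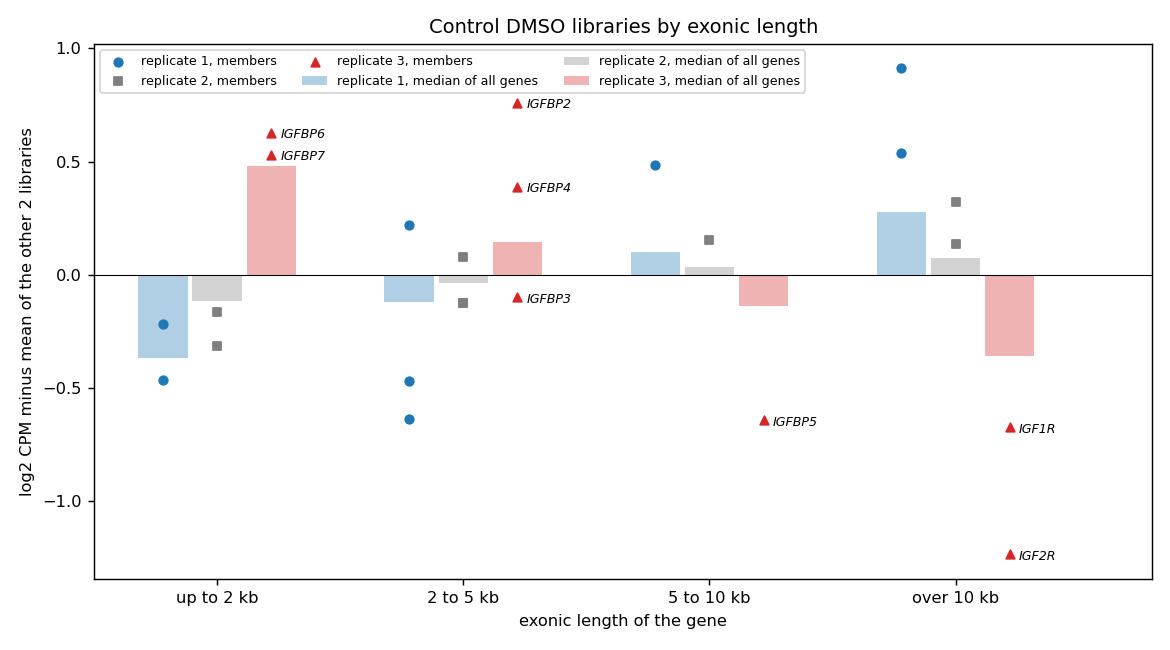
Log2 CPM of each control DMSO library minus the mean of the other 2, by exonic length of the gene. Bars are medians over all genes with a length (1235 up to 2 kb, 2241 over 10 kb) and points are the members except IGF1 and IGF2, named for replicate 3. Replicate 3 is above the others in short genes and below them in long ones, with IGF2R lowest at -1.23.

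Levels of different genes were compared per kb of exons. In senescent DMSO cells IGFBP5, a binding protein that also attaches to matrix, had the highest level of the members at 1290 ± 24.7 CPM per kb, followed by IGFBP4, which inhibits IGF action, at 861 ± 25.6 CPM per kb and by IGFBP7 at 205 ± 3.67 CPM per kb. In control DMSO cells IGFBP5 (734 ± 185 CPM per kb) and IGFBP4 (705 ± 137 CPM per kb) overlapped between libraries. The receptors were lower, with 20.5 ± 2.72 CPM per kb for IGF2R and 1.39 ± 0.139 CPM per kb for IGF1R in senescent DMSO cells. The ligands were lower still, with 0.793 ± 0.025 CPM per kb for IGF2 in senescent DMSO cells, up to 1.27 CPM per kb for IGF2 in a senescent DDD86481 library and 0.126 ± 0.0113 CPM per kb for IGF1 in control DMSO cells. By counts, IGFBP5 ranked between 4 and 12 among all genes in DMSO libraries and between 13 and 24 in NMTi libraries.

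The first comparison asked how the members differed between senescent and control cells with DMSO. Of the 10 members, 9 passed an adjusted p of 0.05, 5 higher and 4 lower in senescent cells, where 68.5% of all genes tested passed (32.5% higher and 36% lower). IGF2, IGFBP7, IGF2R, IGFBP3 and IGFBP5 rose, and IGFBP2, IGFBP6, IGF1R and IGF1 fell. The median log2 fold change of the members was 0.55, beside -0.05 over all genes. With upper quartile scaling the median of all genes moved by -0.15 to -0.21, and the 9 calls kept their direction under that scaling. They were also kept without control DMSO replicate 3, with IGFBP2 at -2.66, IGFBP6 at -2.34, IGFBP7 at 1.72 and IGFBP3 at 0.82, and with the trend over length removed, with -2.90, -2.47, 1.61 and 0.91.

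The ligands went in opposite directions, both at low levels. IGF1, the ligand that mediates growth hormone action, had 25, 28 and 19 counts in control DMSO libraries and 0, 1 and 0 counts in senescent DMSO libraries. The groups did not overlap. Over the group, the ratio of control to senescent CPM was 52.1 with a 95% counting interval of 9.05 to 2090, and the adjusted p was 4.19e-06. The same loss was seen with the inhibitors: 73 against 1 counts with IMP1088, a ratio of 63.4 (counting interval 11 to 2540), and 69 against 0 counts with DDD86481, a ratio of 21.2 against a floor of 3 counts over the group, where the 95% counting interval starts at 16.8. IGF1 was therefore not detectable above the floor in any senescent library at this depth, and no fold change is given for the inhibitors in those cells.

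IGF2, the ligand of fetal growth, had 26, 9 and 6 counts in control DMSO libraries and 89, 94 and 103 counts in senescent DMSO libraries. Every senescent library was above every control library, also with the inhibitors, where control libraries had 4 to 17 counts and senescent libraries 110 to 161. IGF2 rose by a log2 fold change of 3.27 ± 0.33, or 9.61-fold (adjusted p = 2.2e-08). Control DMSO replicate 1 had the highest of the control counts, and without it the log2 fold change was 4.06. A share of 20.4% of the exonic bases of IGF2 also belongs to the readthrough gene INS-IGF2 on the same strand, which had 0 counts in all libraries. Another 37.9% is shared with an unnamed same-strand gene model that has no row in the table, so counts of IGF2 may include it.

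Of the receptors, IGF1R fell and IGF2R rose with senescence. IGF1R, which relays the growth signal, was at 57.7, 47.9 and 32.9 CPM in control DMSO libraries and at 17.7, 21.5 and 19.1 CPM in senescent DMSO libraries. The ranges did not overlap, and the log2 fold change was -1.25 ± 0.16 (2.38-fold lower, adjusted p = 8.43e-07). Without control DMSO replicate 3 it was -1.44, and with the trend over length removed -1.18. IGF2R, which clears IGF2, was at 278, 212 and 103 CPM in control DMSO libraries and at 459, 527 and 404 CPM in senescent ones. Each senescent library was above each control library, and IGF2R rose by a log2 fold change of 1.23 ± 0.22 (2.34-fold, adjusted p = 6.37e-05). Without control DMSO replicate 3, the lowest library, the log2 fold change was 0.92 (adjusted p = 8.95e-06), and with the trend over length removed it was 1.34.

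**Figure D2:**
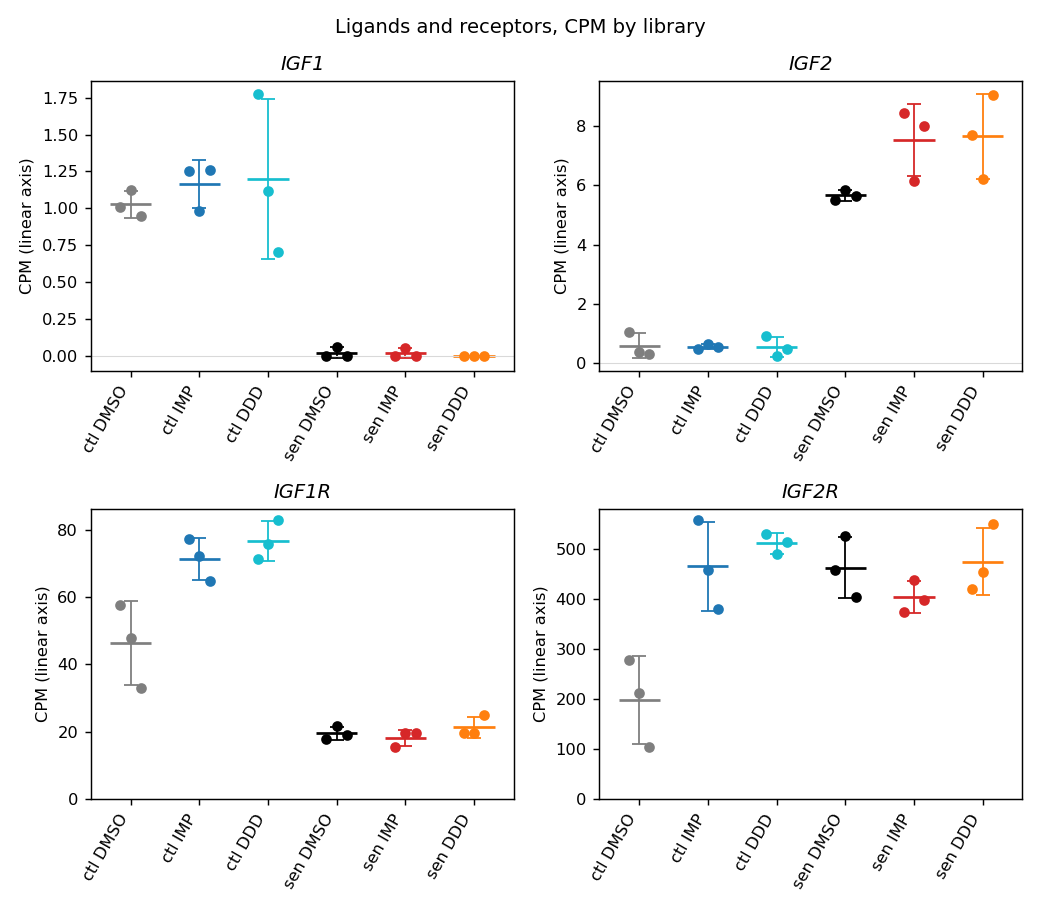
CPM on linear axes for the 2 ligands and 2 receptors in the 3 libraries of each group (points, replicates 1 to 3 from left to right), with means (lines) and SD (bars); ctl is control and sen senescent. IGF1 is at 1.13 CPM or less in control DMSO libraries and near 0 in senescent ones, and the control DMSO libraries of IGF2R lie from 103 to 278 CPM, below those of all other groups.

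The 6 binding proteins split. IGFBP7, a secreted protein that binds IGFs weakly, was at 123, 117 and 174 CPM in control DMSO libraries and at 403, 397 and 389 CPM in senescent ones. It rose by a log2 fold change of 1.52 ± 0.13 (2.87-fold, adjusted p = 1.61e-09). IGFBP3, the main IGF carrier of serum, was at 65.4, 55.7 and 56.3 CPM in control and at 96.1, 123 and 102 CPM in senescent DMSO libraries. The groups did not overlap, and IGFBP3 rose by 0.86 ± 0.12 (1.81-fold, adjusted p = 3.38e-06). IGFBP5 was at 5805, 4982 and 3447 CPM in control and at 8454, 8364 and 8144 CPM in senescent DMSO libraries, again without overlap. It rose by 0.81 ± 0.15 (1.75-fold, adjusted p = 7.48e-05), and by 0.62 without control DMSO replicate 3.

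IGFBP2 and IGFBP6 moved the other way. IGFBP2, which binds IGF2 with high affinity, was at 319.7, 405 and 609 CPM in control DMSO libraries and at 50.9, 57 and 63.4 CPM in senescent ones. All 9 senescent libraries, with or without NMTi, were below all 9 control libraries. With DMSO the log2 fold change was -2.96 ± 0.22 (7.78-fold lower, adjusted p = 1.63e-10). IGFBP6, the binding protein with a preference for IGF2, was at 144, 166 and 239 CPM in control and at 28.4, 30.6 and 32.9 CPM in senescent DMSO libraries. Its log2 fold change was -2.58 ± 0.14 (5.97-fold lower, adjusted p = 1.21e-12).

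IGFBP4 was the member that did not pass. Its level was 1554 ± 303 CPM in control and 1898 ± 56.6 CPM in senescent DMSO cells, where control replicate 3 and senescent replicate 2 were equal at 1837 CPM. The log2 fold change was 0.29 ± 0.14 with a 95% interval of -0.01 to 0.59 (adjusted p = 0.0836). Without control DMSO replicate 3 it passed, at 0.43 (adjusted p = 0.0106), and so it did with the trend over length removed, at 0.36 (adjusted p = 0.00589).

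**Figure D3:**
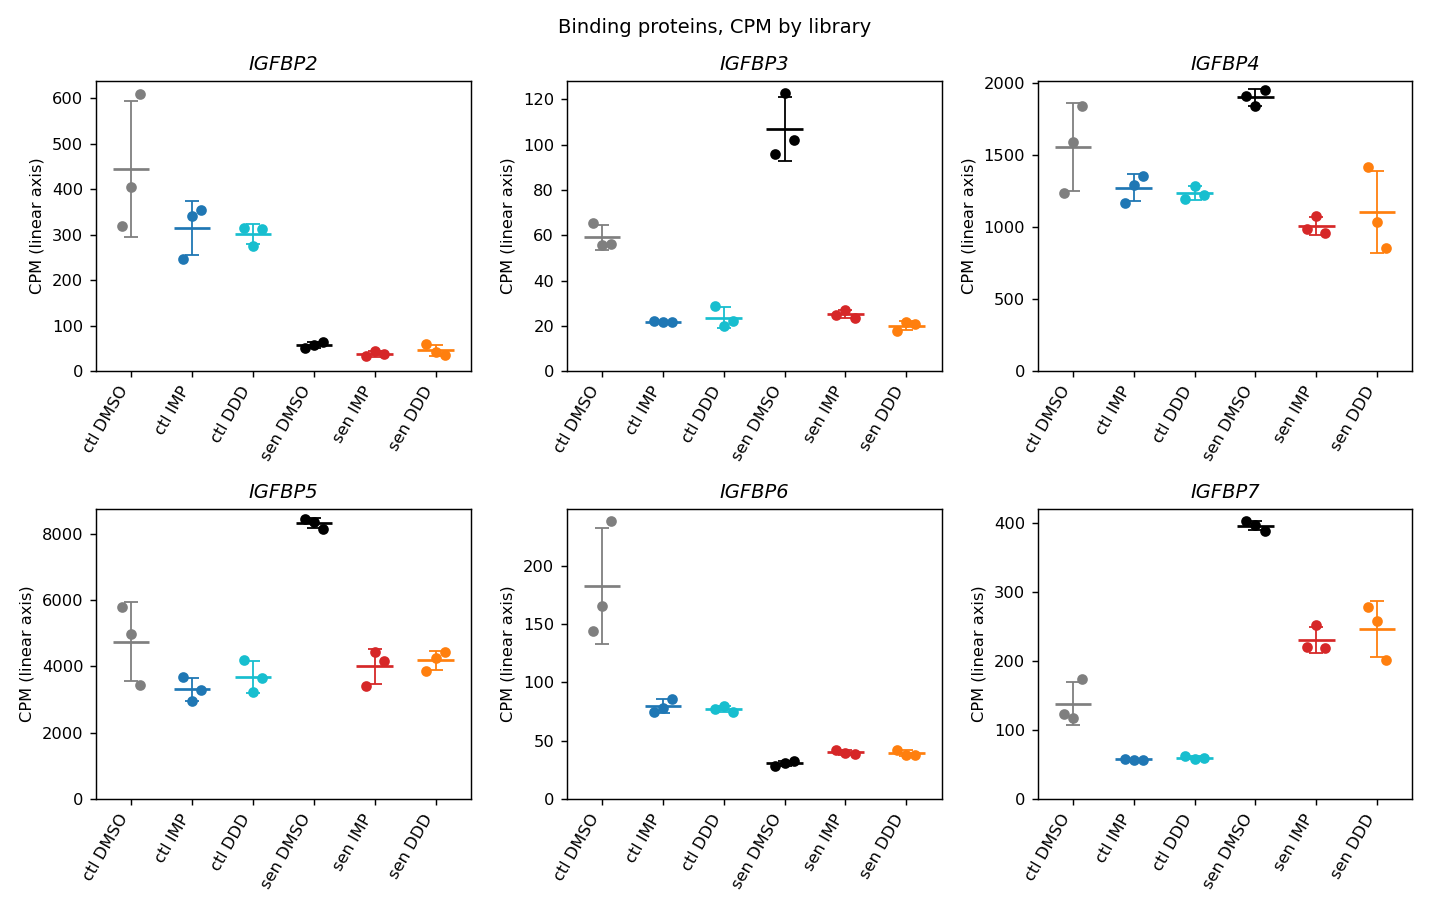
CPM on linear axes for the 6 binding proteins in the 3 libraries of each group (points, replicates 1 to 3 from left to right), with means (lines) and SD (bars); ctl is control and sen senescent. IGFBP3, IGFBP5 and IGFBP7 are highest in senescent DMSO libraries, while IGFBP2 and IGFBP6 have their highest means in control DMSO libraries.

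The next comparison asked what each inhibitor did in senescent cells. With IMP1088, 6 of the 10 members passed, 5 lower and 1 higher, where 44.4% of all genes passed (23.9% lower and 20.6% higher). With DDD86481, 5 passed, 4 lower and 1 higher, where 43.2% of all genes passed (23.1% lower and 20.1% higher). Each of these calls was for a binding protein. Both inhibitors were set against the same DMSO libraries, so the 2 comparisons are not independent. The binding proteins had a median log2 fold change of -0.85 with IMP1088 and -0.73 with DDD86481, beside -0.04 over all genes in each comparison.

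IGFBP3 had the largest fold change of the members in these comparisons. From 96.1 to 123 CPM with DMSO, it was at 24.7, 27.1 and 23.7 CPM with IMP1088 and at 17.9, 21.8 and 20.7 CPM with DDD86481. Neither NMTi group overlapped the DMSO group. The log2 fold change was -2.09 ± 0.13 with IMP1088 (4.26-fold lower, adjusted p = 2.93e-10) and -2.41 ± 0.13 with DDD86481 (5.31-fold lower, adjusted p = 7.07e-11). Both NMTi groups were also below control DMSO cells, whose lowest library was at 55.7 CPM.

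IGFBP5, IGFBP4 and IGFBP7 fell with both inhibitors. IGFBP5 was at 3404, 4423 and 4162 CPM with IMP1088 (-1.06 ± 0.15, adjusted p = 1.02e-05) and at 3874, 4237 and 4441 CPM with DDD86481 (-0.99 ± 0.15, adjusted p = 2.28e-05), from 8144 CPM or more with DMSO. Those levels overlapped the control DMSO range of 3447 to 5805 CPM. IGFBP4 was at 987, 1074 and 957 CPM with IMP1088 (-0.92 ± 0.15, adjusted p = 3.77e-05) and at 1418, 1036 and 857 CPM with DDD86481 (-0.78 ± 0.15, adjusted p = 0.000209), each library below the DMSO range of 1837 to 1948 CPM. IGFBP7 was at 220.7, 252 and 219 CPM with IMP1088 (-0.78 ± 0.13, adjusted p = 4.29e-05) and at 279, 259 and 201 CPM with DDD86481 (-0.69 ± 0.13, adjusted p = 0.000176). Unlike the levels of IGFBP5, those of IGFBP7 stayed above every control DMSO library, whose highest was at 174 CPM.

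IGFBP6 was the member that rose, from 28.4 to 32.9 CPM with DMSO to 42.2, 39 and 38.8 CPM with IMP1088 and 42.4, 38.1 and 38 CPM with DDD86481. The ranges did not overlap. IMP1088 gave a log2 fold change of 0.38 ± 0.14 (adjusted p = 0.0258) and DDD86481 one of 0.37 ± 0.14 (adjusted p = 0.0346). These calls were close to the threshold. With the trend over length removed the log2 fold changes were smaller, at 0.26 (adjusted p = 0.0108) and 0.23 (adjusted p = 0.0249), and both passed. With IMP1088 the call was lost without senescent DMSO replicate 1 (0.33) or 2 (0.38) or without senescent IMP1088 replicate 1 (0.35). With DDD86481 it was lost without senescent DMSO replicate 1 (0.32) or 2 (0.36) or without senescent DDD86481 replicate 1 (0.31) or 2 (0.39).

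IGFBP2, already low, was at 32.7, 45.2 and 36.7 CPM with IMP1088 and at 59.2, 42.3 and 35.1 CPM with DDD86481, from 50.9 to 63.4 CPM with DMSO. The log2 fold change was -0.58 ± 0.21 with IMP1088 (adjusted p = 0.0284) and -0.33 ± 0.21 with DDD86481 (95% interval -0.76 to 0.11, adjusted p = 0.215). The IMP1088 call was lost without senescent DMSO replicate 2 (-0.58, adjusted p = 0.0597) or 3 (-0.50) or without senescent IMP1088 replicate 1 (-0.48) or 3 (-0.55). The DDD86481 value passed without senescent DDD86481 replicate 1, at -0.56 (adjusted p = 0.0496).

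Neither receptor passed in senescent cells. IGF1R was at 15.5 to 19.6 CPM with IMP1088 and 19.4 to 24.9 CPM with DDD86481, and its log2 fold change was -0.09 (95% interval -0.44 to 0.25) and 0.13 (-0.21 to 0.48). IGF2R was at 376 to 438 and 420.1 to 551 CPM, with -0.20 (-0.66 to 0.26) and 0.04 (-0.42 to 0.50). All of these ranges overlapped the DMSO ranges. IGF2 was at 8.47, 6.15 and 8.02 CPM with IMP1088 and at 7.70, 6.22 and 9.08 CPM with DDD86481, all above the DMSO range of 5.49 to 5.85 CPM. Its log2 fold changes were 0.41 ± 0.25 (95% interval -0.10 to 0.93, adjusted p = 0.186) and 0.43 ± 0.25 (-0.08 to 0.95, adjusted p = 0.169). In fits of the groups compared alone, IGF2 passed with both inhibitors (adjusted p = 0.0172 and 0.0377).

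In control cells, 6 members passed with IMP1088, 4 lower and 2 higher, where 33.7% of all genes passed (17.4% lower and 16.3% higher). With DDD86481, 6 passed as well, 4 lower and 2 higher, where 36.6% of all genes passed (18.7% lower and 17.8% higher). Both comparisons rest on the same 3 control DMSO libraries, which the comparison of senescent with control cells also used. The binding proteins that fell with both were IGFBP3, IGFBP6 and IGFBP7, and both receptors rose.

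IGFBP3 was at 22, 21.8 and 21.9 CPM with IMP1088 and at 28.9, 20.1 and 22 CPM with DDD86481, all below the lowest control DMSO library. Its log2 fold change was -1.43 ± 0.13 (2.7-fold lower, adjusted p = 6.26e-08) and -1.32 ± 0.13 (2.5-fold lower, adjusted p = 1.82e-07). IGFBP6 was at 74.9, 78.4 and 85.9 CPM and at 77.1, 79.7 and 74.7 CPM, from 144 CPM or more with DMSO. Its log2 fold change was -1.20 ± 0.13 (adjusted p = 9.61e-07) and -1.24 ± 0.13 (adjusted p = 6.27e-07), and without control DMSO replicate 3 it was -0.96 and -1.01 and with the trend over length removed -0.93 and -0.93. IGFBP7 was at 57.9, 57.1 and 56.5 CPM and at 61.8, 58.2 and 59 CPM, all below the lowest DMSO library at 117 CPM. Its log2 fold change was -1.27 ± 0.13 (adjusted p = 3.95e-07) and -1.21 ± 0.13 (adjusted p = 7.99e-07), and without control DMSO replicate 3 it was -1.07 and -1.01 and with the trend over length removed -1.08 and -0.97.

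The receptors rose in control cells. IGF2R was at 559, 459.6 and 381 CPM with IMP1088 and at 532, 491 and 514 CPM with DDD86481, with no overlap with the DMSO range of 103 to 278 CPM. It rose by a log2 fold change of 1.24 ± 0.22 (2.36-fold, adjusted p = 0.000268) and 1.37 ± 0.22 (2.59-fold, adjusted p = 9.5e-05). Without control DMSO replicate 3 the values were 0.93 and 1.06, and with the trend over length removed they were 1.10 and 1.17, all past the threshold. IGF1R was at 77.2, 72.2 and 64.8 CPM and at 71.2, 75.7 and 82.8 CPM, above the DMSO range of 32.9 to 57.7 CPM. It rose by 0.63 ± 0.15 (adjusted p = 0.00371) and 0.73 ± 0.15 (adjusted p = 0.00109), or by 0.43 and 0.54 without control DMSO replicate 3 and 0.50 and 0.56 with the trend over length removed. In a fit of the groups compared alone, the IMP1088 value of IGF1R missed the threshold (adjusted p = 0.0505).

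Calls for IGFBP5, IGFBP2 and IGFBP4 in control cells changed with the libraries and the fit. In fits of the groups compared alone, the IGFBP5 call with IMP1088 (adjusted p = 0.0921) and the IGFBP2 call with DDD86481 (adjusted p = 0.0853) were lost. IGFBP5 fell with IMP1088 by 0.52 on the log2 scale (± 0.15, adjusted p = 0.011), and it missed the threshold without control DMSO replicate 1 (-0.35) or control IMP1088 replicate 2 (-0.44). With DDD86481 its log2 fold change was -0.36 (adjusted p = 0.0627), and it passed without control DMSO replicate 3 (-0.55) or control DDD86481 replicate 1 (-0.46). IGFBP5 with DDD86481 also passed with the trend over length removed (-0.42, adjusted p = 0.0167). IGFBP2 was called lower with DDD86481 (-0.56 ± 0.20, adjusted p = 0.0319), and the call was lost without control DMSO replicate 3 (-0.27, adjusted p = 0.25) and without control DDD86481 replicate 1 (-0.58), 2 (-0.50) or 3 (-0.58). With IMP1088 IGFBP2 was at -0.50 (adjusted p = 0.0574). It passed without control DMSO replicate 1 (-0.69), and without control DMSO replicate 3 it was at -0.21 (adjusted p = 0.398). With the trend over length removed the IMP1088 value of IGFBP2 passed (-0.50, adjusted p = 0.038). IGFBP4 was at -0.29 (adjusted p = 0.129) and -0.33 (adjusted p = 0.0779), and it passed with either inhibitor without control DMSO replicate 1 (-0.43 and -0.47). Without control DMSO replicate 3 IGFBP4 was at -0.15 with IMP1088 (adjusted p = 0.454). With DDD86481 the IGFBP4 values over fits that left out 1 library ran from -0.47 to -0.20. The ligands did not pass, with 95% intervals of -1.05 to 0.82 and -1.09 to 0.81 for IGF2.

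**Figure D4:**
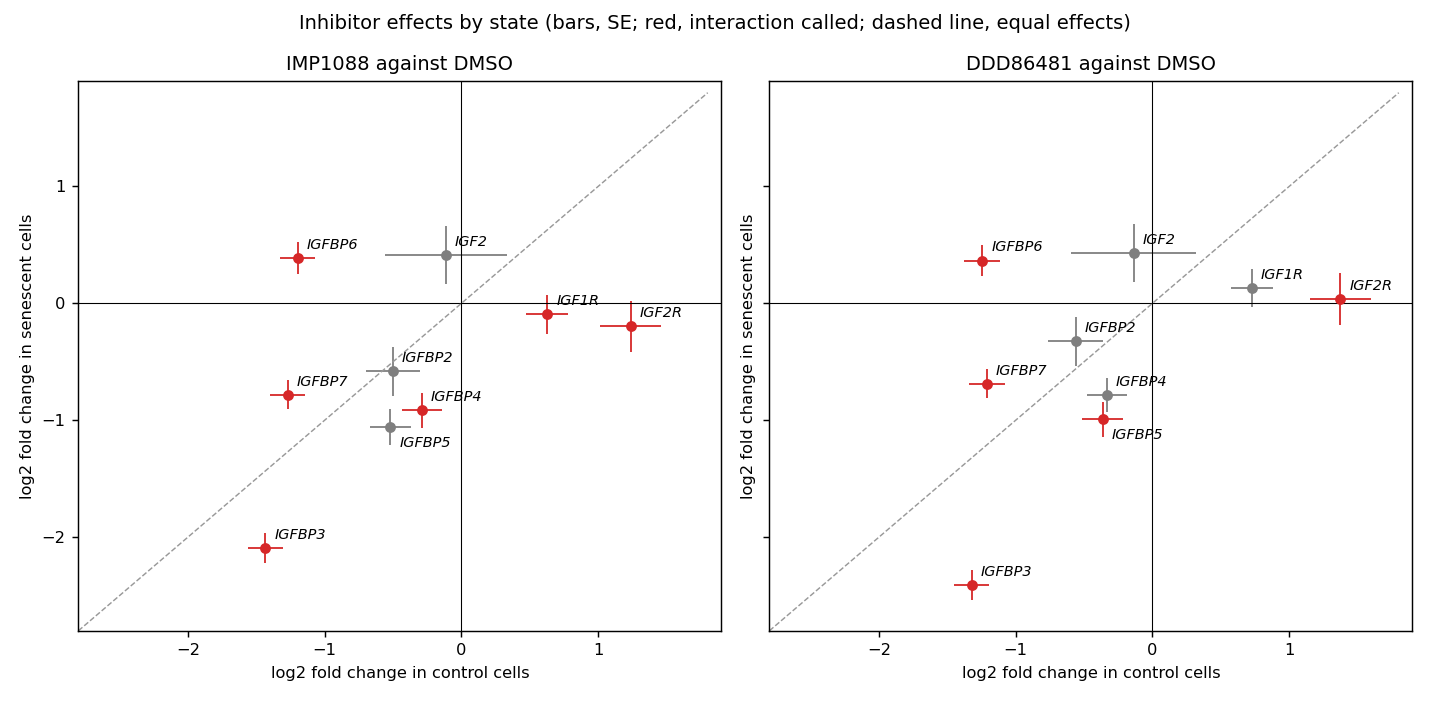
Log2 fold change against DMSO in control cells (horizontal axis) and senescent cells (vertical axis) for IMP1088 (left) and DDD86481 (right), with SE as bars, for the members except IGF1. Red points passed the test of the difference between states and the dashed line marks equal effects; IGFBP6 lies left of 0 and above 0 in both panels, and IGF2R lies far to the right near 0 on the vertical axis.

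Whether an inhibitor acted differently in the 2 states was tested as an interaction, the log2 fold change in senescent cells less the one in control cells. With IMP1088, 6 of the 10 members passed, where 26.2% of all genes passed, and with DDD86481, 5 passed, where 30.3% did. The direction differed between states for IGFBP6, which fell in control and rose in senescent cells, with an interaction of 1.58 ± 0.19 (adjusted p = 6.67e-06) and 1.61 ± 0.19 (adjusted p = 5.47e-06). Without control DMSO replicate 3 these were 1.34 and 1.37, and with the trend over length removed 1.19 and 1.16. IGFBP3 fell further in senescent cells, with -0.65 ± 0.18 (adjusted p = 0.0104) and -1.09 ± 0.18 (adjusted p = 0.000196). IGF2R rose in control cells and did not pass in senescent cells, with -1.43 ± 0.31 (adjusted p = 0.00241) and -1.34 ± 0.31 (adjusted p = 0.00376). Over fits that left out 1 library, the IGF2R values ran from -1.76 to -1.13 and from -1.66 to -1.03. Median interactions over all genes also followed exonic length. They ran from 0.34 in genes of up to 2 kb to -0.28 over 10 kb with IMP1088, and from 0.40 to -0.32 with DDD86481. IGFBP6, IGFBP3 and IGF2R each passed in all 12 fits that left out 1 library, with either inhibitor.

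In the order of IGF2R levels, control DMSO was lowest at 198 ± 88.4 CPM, and its range did not reach those of the other 5 groups, which had means of 404 to 512 CPM and overlapped with their neighbours in the order. For IGFBP3 the order was senescent DMSO (107 ± 14.1 CPM), control DMSO (59.1 ± 5.41 CPM) and then the 4 NMTi groups at means of 20.1 to 25.2 CPM. The ranges of senescent IMP1088, control DDD86481 and control IMP1088 overlapped with their neighbours in that order, while those of control IMP1088 and senescent DDD86481 came close without overlap. For IGFBP6 the senescent groups remained below all control groups, with the lowest control NMTi library at 74.7 CPM and the highest senescent one at 42.4 CPM.

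The other interactions were weaker. IGFBP7 passed with IMP1088 (0.49, adjusted p = 0.0487) and DDD86481 (0.52, adjusted p = 0.0332), but without control DMSO replicate 3 it was at 0.29 (adjusted p = 0.137) and 0.32 (adjusted p = 0.0891), and with the trend over length removed at 0.18 and 0.17. The IMP1088 call for IGFBP7 was kept in 2 of 12 fits that left out a library, those without control DMSO replicate 1 or 2, and with the replicate number as a block it was lost (0.49, adjusted p = 0.0588). The DDD86481 call for IGFBP7 was also lost without senescent DMSO replicate 1 (0.53), 2 (0.52) or 3 (0.51) or senescent DDD86481 replicate 1 (0.42) or 2 (0.48). IGFBP4 passed with IMP1088 (-0.63, adjusted p = 0.03), and in 5 of 12 such fits, whose range was -0.76 to -0.48, with the call lost without control DMSO replicate 2, control IMP1088 replicate 2 or 3, senescent DMSO replicate 1 or 3 or senescent IMP1088 replicate 1 or 3. With DDD86481 it was at -0.45 (adjusted p = 0.102) and passed without control DMSO replicate 3 (-0.59) or senescent DDD86481 replicate 1 (-0.67). The IGFBP4 interaction with DDD86481 also passed with the trend over length removed (-0.77, adjusted p = 0.00105) and with no filter on low counts (-0.46, adjusted p = 0.0321).

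IGF1R passed with IMP1088 (-0.72, adjusted p = 0.0238) and lost the call without control IMP1088 replicate 1 (-0.63) or 2 (-0.68), senescent DMSO replicate 2 (-0.64) or senescent IMP1088 replicate 1 (-0.61). With DDD86481 IGF1R was at -0.60 (adjusted p = 0.0504) and passed without control DMSO replicate 1 (-0.79) or senescent DDD86481 replicate 3 (-0.72). IGFBP5 passed with DDD86481 (-0.63, adjusted p = 0.0298) in 6 of 12 fits that left out a library, over a range of -0.80 to -0.44, and lost the call without control DDD86481 replicate 1 or 3, senescent DMSO replicate 1 or 2 or senescent DDD86481 replicate 1 or 2. With IMP1088 IGFBP5 was at -0.54 (adjusted p = 0.0647) and passed without control DMSO replicate 1 (-0.71).

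The make-up of the binding-protein pool was described from CPM per kb, as the share of each gene in the sum of the 6. In senescent DMSO cells IGFBP5 held 53.4 ± 0.876% and IGFBP4 35.7 ± 0.981% of the sum, and in control DMSO cells 42 ± 11.3% and 40.1 ± 7.13%. IGFBP7 held 8.52 ± 0.12% in senescent and 4.08 ± 0.876% in control DMSO cells. IGFBP2 went from 5.33 ± 1.71% to 0.5 ± 0.0578% and IGFBP6 from 7.73 ± 1.99% to 0.944 ± 0.0753%. The sum itself was 1750 ± 36.9 CPM per kb in control DMSO and 2410 ± 21.3 CPM per kb in senescent DMSO cells. With IMP1088 and DDD86481 it was 1250 ± 43.4 and 1290 ± 58.9 CPM per kb in control cells and 1240 ± 107 and 1320 ± 108 CPM per kb in senescent cells, so the 4 NMTi groups lay within 1130 to 1430 CPM per kb and the DMSO groups above them. With the length of the longest transcript in place of all exons, the sums were 1840 and 2550 CPM per kb with DMSO.

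**Figure D5:**
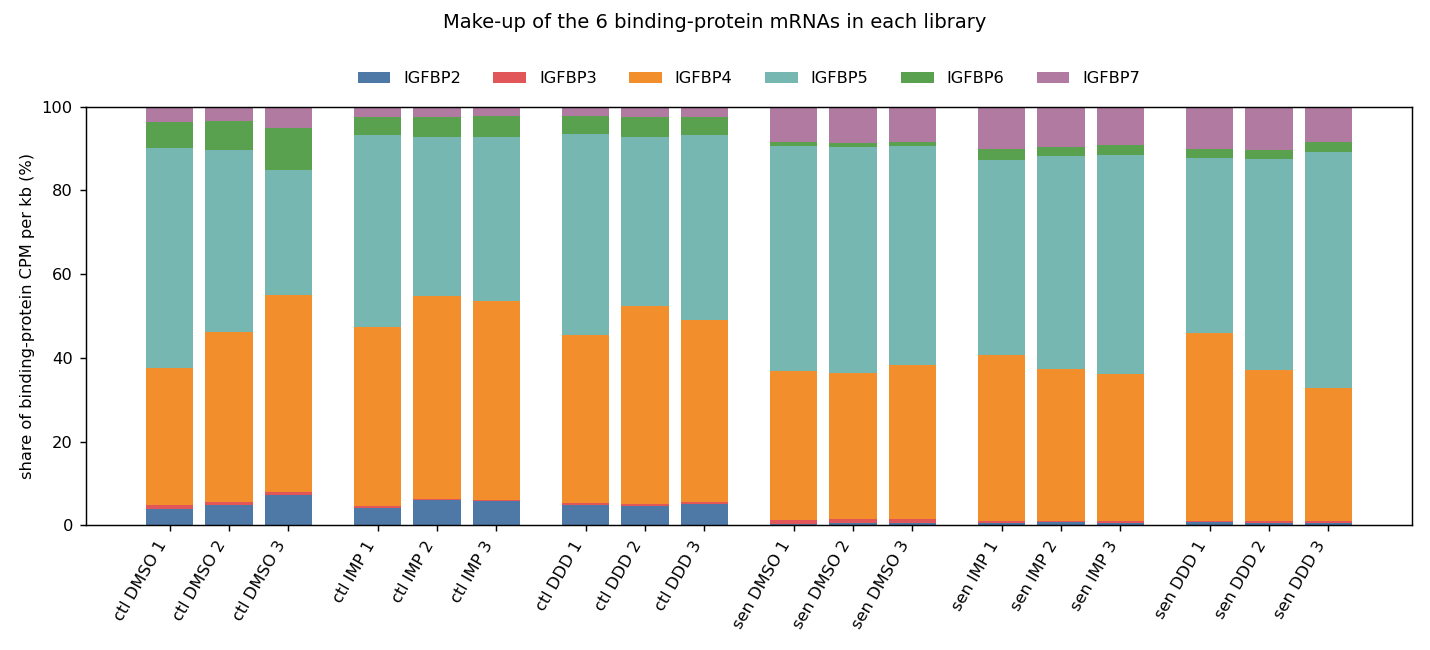
Share of each binding protein in the summed CPM per kb of the 6, in percent, as stacked bars for the 18 libraries; ctl is control and sen senescent, and numbers are replicates. IGFBP4 and IGFBP5 fill most of each bar, IGFBP2 and IGFBP6 shrink to 0.5% and 0.944% in senescent DMSO cells, and control DMSO replicate 3 has the smallest share of IGFBP5, 30%.

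Other genes of the pathway were taken from a list of 53, of which 52 were in the table and 39 were tested. For these genes, values without control DMSO replicate 3 or with the trend over length removed are not given. In senescent against control DMSO cells, 21 of the 39 were called higher and 9 lower, where 32.5% of all genes were called higher and 36% lower, and their median log2 fold change was 0.43, beside -0.05 over all genes. With IMP1088 5 were higher and 12 lower in senescent cells, and with DDD86481 5 and 11, where 44.4% and 43.2% of all genes were called in either direction. In control cells 9 were called higher and 6 lower for IMP1088, and 14 higher and 3 lower for DDD86481, where 33.7% and 36.6% of all genes were called. For the interaction, 3 were called positive and 10 negative in the case of IMP1088, and 3 positive and 14 negative in that of DDD86481, where 26.2% and 30.3% of all genes were called.

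Of 6 genes that process binding proteins, 4 were called higher and 1 lower with senescence, where 68.5% of all genes were called (32.5% higher and 36% lower). STC1, a glycoprotein that blocks PAPPA, had the largest change, from 76.9 ± 7.48 CPM to 4482 ± 426 CPM (log2 fold change 5.86 ± 0.15, adjusted p = 7.33e-18). PAPPA2, a protease that cleaves IGFBP3 and IGFBP5, went from 2 to 6 counts in control DMSO libraries to 56 to 67 in senescent ones (4.51 ± 0.38, adjusted p = 1.74e-09). ADAM12, a metalloprotease that can cleave IGFBP3 and IGFBP5, rose by 2.90 ± 0.14 (adjusted p = 1.19e-13) and fell with IMP1088 (-0.66) and DDD86481 (-0.57) in senescent cells. In control cells it was called lower with IMP1088 (-0.41, adjusted p = 0.0306) and not with DDD86481 (-0.25). Neither interaction of ADAM12 passed.

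PAPPA, the protease that releases IGF from IGFBP4, moved with the inhibitors in opposite directions by state. It was at 115 ± 25.4 CPM in control DMSO cells and at 175 ± 3.54 and 201.9 ± 31.5 CPM with IMP1088 and DDD86481, log2 fold changes of 0.61 ± 0.18 (adjusted p = 0.0119) and 0.81 ± 0.18 (adjusted p = 0.00139). In senescent cells it went from 179 ± 28.2 CPM to 72 ± 8.19 and 92.9 ± 26.3 CPM, changes of -1.31 ± 0.18 (adjusted p = 6.56e-06) and -0.95 ± 0.18 (adjusted p = 0.000229). The interaction of PAPPA was -1.92 ± 0.25 and -1.76 ± 0.25 (adjusted p = 2.03e-05 and 4.7e-05). HTRA3, a secreted serine protease with an IGFBP-like domain, moved the other way, with an interaction of 1.32 ± 0.21 (adjusted p = 0.000142) and 0.98 ± 0.21 (adjusted p = 0.00187). STC1 rose in control cells with both inhibitors (0.77 and 0.95) and was at 0.00 and -0.19 in senescent cells, where it did not pass, with an interaction of -0.77 and -1.14.

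Of 8 tested receptors and adaptors, 3 were called higher and 3 lower with senescence, where 32.5% of all genes were called higher and 36% lower. The adaptors IRS1 and IRS2, which link the IGF1 receptor to PI3K, both fell with senescence (-0.76 ± 0.19 and -0.89 ± 0.19). The inhibitors then parted them in senescent cells: IRS1 fell with IMP1088 and DDD86481 (-1.04 ± 0.19 and -0.90 ± 0.19) and IRS2 rose (0.84 ± 0.19 and 1.07 ± 0.19). In control cells IRS2 was at 0.45 (adjusted p = 0.0542) and 0.48 (adjusted p = 0.0392). The interaction passed for IRS1 (-1.04 and -0.98) and not for IRS2 (adjusted p = 0.275 and 0.0881). Of 16 genes of the PI3K and AKT arm, 9 were higher and 2 lower with senescence, where 68.5% of all genes were called, and MTOR, the kinase downstream of AKT, was among the higher (1.13 ± 0.20). In control cells MTOR rose with IMP1088 (0.67, adjusted p = 0.0156) and DDD86481 (0.75, adjusted p = 0.00703), and so did TSC1, an inhibitor of mTOR complex 1 (0.61 and 0.69). The control DMSO libraries of MTOR ran from 29.8 to 71 CPM. They overlapped those with IMP1088 (69.1 to 91.7 CPM) and DDD86481 (70.6 to 96.6 CPM). For TSC1 the control DMSO libraries (30.5 to 60.5 CPM) lay below those with either inhibitor (63.1 CPM or more).

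All 3 IGF2 mRNA-binding proteins, which stabilise target mRNAs, were called higher with senescence and lower with each inhibitor in senescent cells. Of all genes, 32.5% were called higher with senescence, and 23.9% and 23.1% lower with IMP1088 and DDD86481 in senescent cells. IGF2BP3 went from 69.9 ± 12.3 CPM to 122 ± 9.35 CPM with senescence (0.81 ± 0.11, adjusted p = 1.21e-06) and down to 49.1 ± 2.4 CPM with IMP1088 (-1.32 ± 0.11) and 48.1 ± 2.94 CPM with DDD86481 (-1.35 ± 0.11). It was also called lower in control cells, by less (-0.42 and -0.45), and its interactions of -0.90 and -0.90 passed. The FOXO factors, transcription factors that AKT restrains, were called in 3 of 3 tested with senescence, 1 higher and 2 lower. Of 5 transcripts in the table that lie beside members, 2 were tested and 1 was called higher and 1 lower with senescence. In the same comparison 68.5% of all genes were called, and lists of so few genes are too small to set against that share.

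Genes with the most similar pattern were found for each member by the root mean square (RMS) difference of centred log2 CPM over the 18 libraries. For IGFBP5 these were ASAP2 (0.106) and ANKH (0.155), against an SD of IGFBP5 itself of 0.477. For IGF1R they were ZNF292 (0.134) and SNX30 (0.14), for IGFBP4 POLB (0.148) and FN3KRP (0.151), and for IGFBP7 SMAGP (0.153) and CLIC1 (0.191). IGFBP6 was nearest to SMC4 (0.212) and BAG2 (0.259), IGF2R to KDM6B (0.216) and TPP1 (0.221), and IGFBP2 to DIPK1B (0.24) and IL11RA (0.266). IGFBP3 was nearest to SHROOM2 (0.276) and PDLIM1 (0.332), IGF1 to SGCD (0.305) and C1S (0.31), and IGF2 to LRP8 (0.311) and ADAMTS14 (0.374). The points share libraries and groups, so these values describe likeness in these data alone.

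On GRCh38.p14, IGFBP2 (chr2:216632828-216664436) and IGFBP5 (chr2:216672105-216695549) lie on opposite strands of the same chromosome. They moved in opposite directions with senescence. Of the other members IGFBP3 lies on chr7, IGFBP4 on chr17, IGFBP6 and IGF1 on chr12, IGFBP7 on chr4, IGF2 on chr11, IGF1R on chr15 and IGF2R on chr6. Of the exonic bases of IGFBP7, 13.5% overlap POLR2B on the opposite strand, and of those of IGF1, 82.5% overlap the long noncoding RNA HELLPAR on the opposite strand, which has no row in the table. Counting by strand was not stated for this table, so reads of such pairs may be shared.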

How the data were processed

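RNA-seq counts for 18 libraries of IMR90 ER:RAS cells were taken from 1 deposited table, in which the authors gave raw counts per gene symbol, not normalized. The submitters' processing notes name DRAGEN, STAR 2.7.8a, DESeq2 1.32.0 and hg38 without roles, whereas the study's methods name TopHat, hg19 and an Ensembl annotation. Which of them made the table was not stated, so counts of overlapping genes are uncertain. Groups and replicate numbers came from the labels, and in the column names DDD86481 is called PCLX001. Of 28266 rows, 6836 held no count. The members, the gene lists and the naming rule were chosen with earlier results of these data known.

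Genes passing filterByExpr in edgeR 4.0.16 (R 4.3.3; minimum count 10) numbered 14341 and held 99.962% of counts. TMM-scaled counts were tested with the quasi-likelihood F test of edgeR, fitted once over the 6 groups, with Benjamini-Hochberg adjustment over all 14341 genes and a threshold of 0.05. SE was the log2 fold change divided by the square root of F, and 95% intervals used the t distribution of that test. The test was checked on simulated counts drawn without a trend over length, and the outcome is not reported here. Named genes were the 10 members, up to 3 pathway genes per comparison with the largest change among those called, the 2 nearest genes by pattern for each member, and the cell markers. Exonic lengths and overlaps came from GENCODE v44 lifted to GRCh37 and cover 96.4% of tested genes. Positions and promoters came from RefSeq GRCh38.p14. Intervals and floors cover counting error only, as reads carry no molecular identifiers. Replicates differed by more than sampling noise (chi-square of at least 5.26 per gene).

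Whether replicate numbers pair libraries was checked from deviations from group means, since the labels name no batch. For control DMSO with control IMP1088 every pair correlated (r = 0.394, 0.123 and 0.231). The main fit still used no pairing, and pairing entered only through the replicate block among the alternatives. In the other compared groups at least 1 pair was under 0.1. Alternatives were DESeq2 size factors, upper quartile scaling, no filter, DESeq2 1.42.0 Wald tests, a replicate block, a fit of the groups compared alone, each library left out, the longest transcript as length, and, added after the data were seen, removal of each library's trend over length.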

Additional observations from a re-analysis of the deposited data

Results flagged for a closer look

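The difference between an inhibitor's effect in senescent and in control cells passed the interaction test for 11 of 20 member and inhibitor pairs, where 26.2% of all genes passed with IMP1088 and 30.3% with DDD86481, and this difference between states is what marked them for a closer look. Where it is positive, the log2 fold change was higher in senescent cells. With IMP1088 the interaction was 1.58 for IGFBP6, 0.49 for IGFBP7, -0.65 for IGFBP3, -0.63 for IGFBP4, -0.72 for IGF1R and -1.43 for IGF2R. With DDD86481 it was 1.61 for IGFBP6, 0.52 for IGFBP7, -1.09 for IGFBP3, -0.63 for IGFBP5 and -1.34 for IGF2R. IGFBP6 was the member with called effects of opposite sign in the 2 states. Its rise in senescent cells was close to the threshold. That call was lost in 3 of 6 fits that left out 1 library with IMP1088 and in 4 of 6 with DDD86481. IGFBP7 fell in both states, by more in control cells, and missed the threshold without control DMSO replicate 3 (0.29 and 0.32). Groups of 3 libraries are too small for the test of single outlying samples used here.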

How the results depend on the processing

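Of the 10 members, leaving out 1 library at a time gave 9 to 10 calls for senescence with DMSO, 4 to 6 for IMP1088 and 4 to 5 for DDD86481 in senescent cells, and 5 to 7 for each in control cells. The interaction with IMP1088 had 3 to 7 calls, with 3 without control IMP1088 replicate 2 or senescent IMP1088 replicate 1. The interaction with DDD86481 had 3 to 6 calls, with 3 without senescent DDD86481 replicate 2, senescent DMSO replicate 1 or senescent DMSO replicate 2. In a fit of the groups compared alone it also had 3 calls, and the cause was not tested. That fit gave 4 calls in place of 6 for IMP1088 in control cells, and no other setting moved a count of member calls by 1.5 times or more. With replicate number as a block, 65 of 66 values kept their direction and side of the threshold, the exception being the IMP1088 interaction of IGFBP7 (0.49, adjusted p = 0.0588), which was also lost with DESeq2 size factors (adjusted p = 0.0504). Signs turned in values that passed in neither fit, and their log2 values over the fits that left out a library were -0.16 to 0.0122 for IGF1R with IMP1088 and -0.0817 to 0.14 for IGF2R with DDD86481 in senescent cells, -0.38 to 0.68 for IGF2 with IMP1088, -0.70 to 0.66 for IGF2 and -0.19 to 0.50 for IGF1 with DDD86481 in control cells, and, for the interactions, -0.37 to 0.11 for IGFBP2 and -0.27 to 0.82 for IGF2 with IMP1088 and -0.0572 to 0.43 for IGFBP2 and -0.23 to 1.17 for IGF2 with DDD86481. With the trend over length removed, chosen after the data were seen, IGF1R with IMP1088 in senescent cells was at 0.0193. Depth limits the ligands most, since IGF1 had at most 1 count in a senescent library and IGF2 as few as 4 in a control one.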
